A study of Mus musculus with 15 samples.

Results

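The transcripts of 9 hepatokine genes, Fgf21, Angptl4, Angptl8, Inhbe, Fetub, Ahsg, Lect2, Rbp4 and Selenop, were followed in the liver of 15 female C57BL/6 mice, 1 library per mouse. The genes were chosen by name, matched to the 55450 Ensembl gene IDs of the count table through the symbols of the GENCODE M21 annotation, and all 9 were found. All 9 also passed the filter on low counts, which left 15808 genes. When the study began, weeks before the first gavage, Adult mice (A1 to A5) were aged 6 months and Old mice (O1 to O5) 22 months, so they were older than these labels when the liver was taken, and corn oil was their vehicle, given daily by gavage (120 µL). The PDX mice (P1 to P5), also aged 22 months at that time, received protectin DX (PDX), a lipid mediator derived from docosahexaenoic acid, in corn oil at 30 ng per g of body weight. All 15 mice were therefore gavaged with oil, on chow with free access to food. The sample labels give 9 weeks of gavage and the design text of the series gives 8 weeks. The study asked what aging and PDX do to the liver transcriptome. Whole liver was sequenced, so fewer cells of a type and less RNA per cell cannot be told apart, and the feeding state and time of death of each mouse were not given in the sources used here. The study handled its mice in batches, each euthanized within 1 day with the groups in alternating order. The batch of each mouse was not given either.

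Hepatokines are proteins that the liver releases into the blood and that act on other organs, much as adipokines do from fat. FGF21 is induced by fasting, by protein restriction and by cell stress and acts through FGF receptors with the co-receptor beta-klotho, ANGPTL4 and ANGPTL8 inhibit lipoprotein lipase and so set which tissue takes up triglyceride, and INHBE is the subunit of activin E, which acts on fat cells. FETUA (gene Ahsg) and FETUB are fetuins that inhibit insulin receptor signalling or proteases, LECT2 is a chemotactic factor linked to insulin resistance in muscle, RBP4 carries retinol in plasma, and SELENOP carries selenium from the liver to other tissues.

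The 9 genes lie on 8 chromosomes of mouse genome build GRCm38 (mm10). Fgf21 lies at chr7:45613886-45615490 (minus strand), Angptl8 at chr9:21835510-21837347 (plus), Inhbe at chr10:127348857-127354411 (minus), Lect2 at chr13:56542464-56548502 (minus), Selenop at chr15:3268547-3280508 (plus), Angptl4 at chr17:33773750-33781830 (minus) and Rbp4 at chr19:38116629-38125281 (minus). The fetuin genes are neighbours on chromosome 16, with Ahsg at chr16:22891277-22899449 and Fetub at chr16:22918334-22939778, both on the plus strand, 18884 bases apart and with 0 annotated genes between them. Angptl8 lies inside Dock6 and 3 other members overlap a gene on the opposite strand (Ahsg with Gm30505, Inhbe with Gm47200, Selenop with Ccdc152). The authors counted pairs by strand, and the partners of Ahsg, Inhbe and Selenop had 0 to 187 counts per mouse, against 546 to 1469 for Dock6.

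Upstream sequence is shown for 3 of the 4 members that hold TGATGNAAN, the core of the element bound by C/EBP and ATF4 dimers in the integrated stress response, since FGF21 and INHBE are known outputs of that response. The sequences are the 250 bases before the RefSeq start on GRCm38.p6, on the strand of the gene, 5′ to 3′, with the match in capitals. The Fgf21 window is chr7:45615491-45615740 (minus), the Angptl8 window is chr9:21835260-21835509 (plus) and the Rbp4 window, the farther upstream of its 2, is chr19:38125322-38125571 (minus).
Fgf21: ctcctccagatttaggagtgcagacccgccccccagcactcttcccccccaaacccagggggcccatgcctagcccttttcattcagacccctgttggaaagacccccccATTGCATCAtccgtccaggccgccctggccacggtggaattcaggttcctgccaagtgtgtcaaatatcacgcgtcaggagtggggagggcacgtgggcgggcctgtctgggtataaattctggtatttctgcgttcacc
Angptl8: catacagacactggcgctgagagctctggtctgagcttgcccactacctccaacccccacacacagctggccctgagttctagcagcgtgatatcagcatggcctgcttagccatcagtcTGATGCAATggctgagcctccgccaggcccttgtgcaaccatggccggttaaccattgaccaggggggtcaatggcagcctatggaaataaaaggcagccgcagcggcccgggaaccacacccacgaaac
Rbp4: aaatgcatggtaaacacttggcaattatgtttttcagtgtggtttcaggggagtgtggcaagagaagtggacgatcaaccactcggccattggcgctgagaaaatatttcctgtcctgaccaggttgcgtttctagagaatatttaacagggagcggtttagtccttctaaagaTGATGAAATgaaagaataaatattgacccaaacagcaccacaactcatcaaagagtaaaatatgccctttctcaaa
The match began 140 bases before the start in Fgf21, 130 bases in Angptl8 and 76 bases in Rbp4, and on the reverse strand in Fgf21. Inhbe held 1 match on the reverse strand, CTTGCATCA, 182 bases before its RefSeq start, in a stretch that GENCODE annotates as part of its first exon and 5′ UTR. The RefSeq table gave 12 windows for 8 members, and Angptl4 had no entry. TGATGNAAN was in 4 of the 12 windows (4 of 8 genes) and in 3.44% of 32817 windows of all genes, searched on both strands. Of the other motifs, each searched separately so that matches may share bases, CACGTG (the E-box) was in the window of Fgf21 (6.02% of all windows), TGACG in windows of Fetub, Fgf21, Rbp4 and Selenop (17.7%), TATAAA in the same 4 genes (12.4%) and CCAAT in Fetub, Inhbe and Rbp4 (33.8%). AGGTCA was in 0 of the 12 windows (14.03%). A match is a run of letters and not a measured site.

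Between 22424383 and 36070835 read pairs were counted per mouse. Levels are given in CPM, the counts relative to a library total corrected with TMM factors, and a called gene is one with an adjusted p under 0.05 in edgeR's quasi-likelihood test over all 15808 genes. The libraries of 2 Old mice, O2 and O5, stood apart: pairs of mice within a group correlated at 0.979 to 0.988 in Adult, 0.969 to 0.981 in PDX and 0.836 to 0.974 in Old. Of the 15 mice, O5 was the lowest in 28.4% and the highest in 25.9% of all genes tested, and O2 was the lowest in 12.4% and the highest in 20.1%. O2 had the highest summed level of macrophage (3906 CPM), neutrophil (132 CPM) and B cell markers (116 CPM), against at most 775, 5.24 and 12.9 CPM in Adult mice and 915 to 1924, 12.5 to 51.0 and 32.6 to 65.2 CPM in PDX mice. The 10 hepatocyte markers, all tested, summed to 154980 to 170623 CPM in Adult, 83338 to 244042 CPM in Old and 161518 to 205088 CPM in PDX. In Old versus Adult 0 of them were called higher and 2 lower (4.71% and 2.07% of all genes), with a median log2 fold change of -0.28. Their median difference from the Adult mean was -1.09 on the log2 scale in O2. In the other Old and PDX mice it was -0.56 to 0.07. The adipocyte markers summed to 18.7 CPM at most, and 4 of their 6 genes, among them Adipoq, did not pass the filter.

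Per length of exon, the members spanned more than 3 orders of magnitude in the Adult liver. Ahsg led with a median of 3965 CPM per kb, followed by Rbp4 (1906), Selenop (1631), Fetub (243), Lect2 (147), Angptl8 (121), Angptl4 (11.5), Inhbe (5.41) and Fgf21 (1.09). The Adult ranges of neighbours in this order did not overlap down to Fetub and Lect2. Lect2 overlapped with Angptl8, Angptl4 with Inhbe, and Inhbe with Fgf21, so the order within those pairs was not resolved by 5 mice. Averaged over all 15 mice, Ahsg ranked number 7 of the 15798 tested genes with an annotated exon length, Rbp4 25, Selenop 27, Fetub 163, Lect2 400, Angptl8 504, Angptl4 1896, Inhbe 6107 and Fgf21 8052. The exon length of Inhbe (5319 bases) includes a first exon that extends past the RefSeq start, and its level per kb would be higher with the shorter model. Together the 9 genes took 1.64% ± 0.0790 of all counts in Adult, 1.78% ± 0.450 in Old and 1.99% ± 0.188 in PDX (SD, n = 5 each), and Ahsg alone held 1.05% of the counts of the 15 libraries. Abundant plasma proteins and scarce hormones thus sit in the same list, and the depth behind them differs: Fgf21 had 13 to 515 counts per mouse, Ahsg 175778 to 398133.

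**Figure D1:**
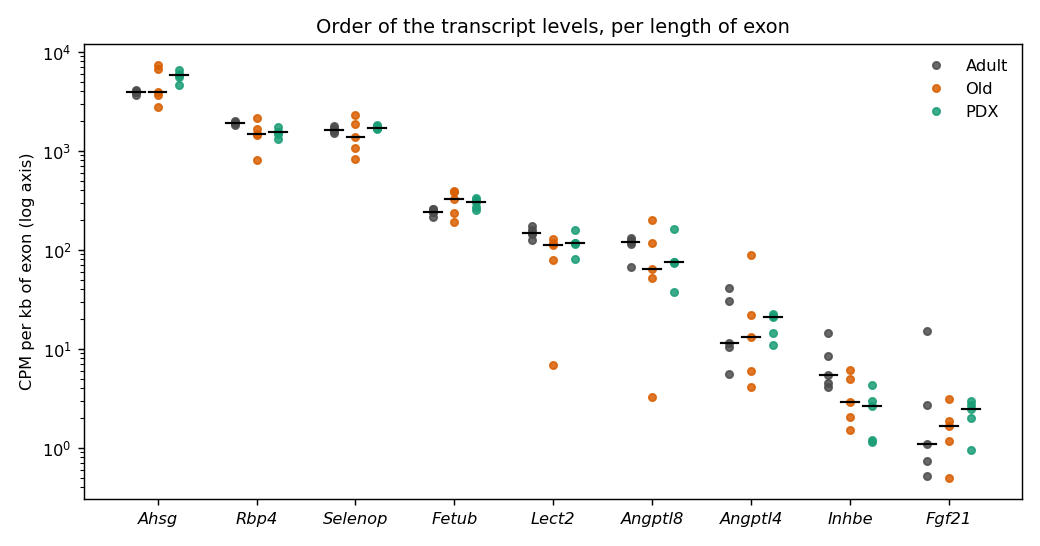
Level of each hepatokine transcript in CPM per kb of exon (log axis), 1 point per mouse, coloured by group, with black bars at the group medians (n = 5). The genes are ordered from Ahsg (number 7 of 15798 genes) to Fgf21 (number 8052), and the low points of Lect2 and Angptl8 in the Old group are mouse O5.

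In each of the 3 comparisons, 0 of the 9 members were called by edgeR in the fit of all 15 mice. For Old versus Adult, 6.78% of all genes were called, the log2 fold change was above 0 in 3 members and below 0 in 6 (below 0 in 43.2% of all genes), their median was -0.35 beside 0.07 for all genes, and the adjusted p (edgeR, Benjamini-Hochberg) ran from 0.149 to 0.747. Inhbe alone had an unadjusted p under 0.05 (27.7% of all genes did), and DESeq2 called 0 of the 9 (14.1% of all genes) and limma-voom 2 (Fetub and Ahsg, beside 14.7% of all genes). The limma-voom fit weighted each mouse by the quality of its library, with weights of 0.139 for O2 and 0.0716 for O5. Its results are therefore not separate from those of the fit without these 2 mice. For PDX versus Old, 0% of all genes were called by edgeR, with 834 genes (5.28%) at an unadjusted p under 0.05, 1 gene called by DESeq2 and 0 by limma-voom. There the members' median was 0.02 beside -0.07 for all genes, and 0 of the 9 had an unadjusted p under 0.05. For PDX versus Adult, 2.66% of all genes were called and the members' median was -0.33 beside -0.01. Here 1 member (Inhbe) had an unadjusted p under 0.05 (20.6% of all genes), which DESeq2 also called (7.68% of all genes). Limma-voom called 4 members (Inhbe, Fetub, Ahsg and Rbp4) and 33.3% of all genes in this comparison. Each pair of these comparisons shares 1 group of mice, so they are not independent. The groups did not overlap for 0 members between Old and Adult (8.13% of all genes), for 0 between PDX and Old (0.342%) and for 2 between PDX and Adult (19.9%), which were Ahsg, higher in PDX (10.5% of all genes were), and Rbp4, lower in PDX (9.34%).

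**Figure D2:**
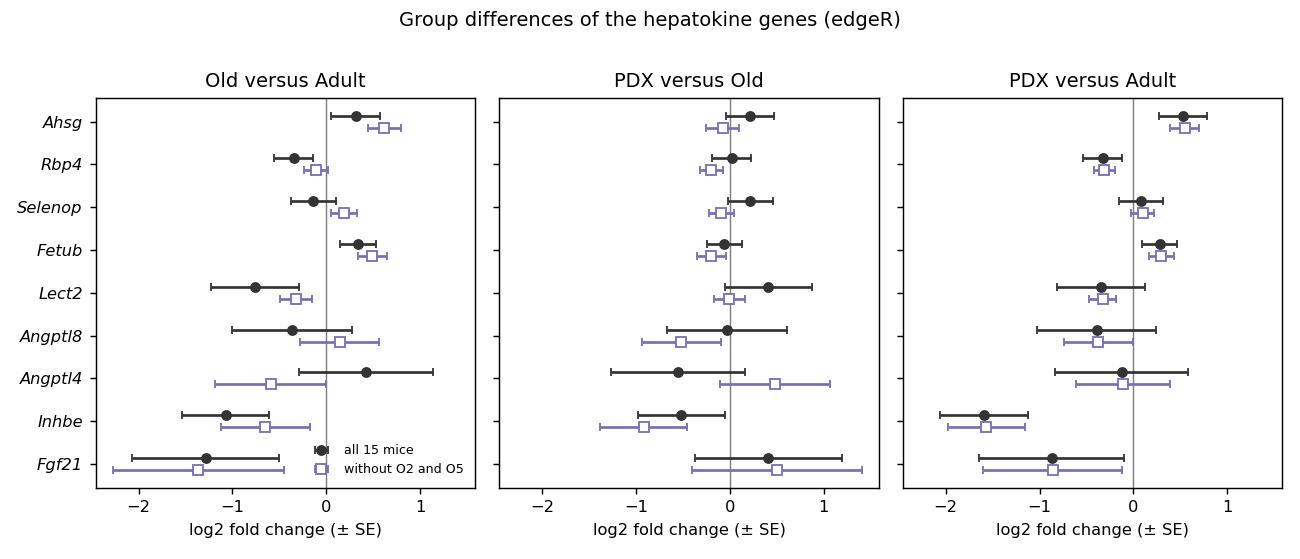
Log2 fold change of each hepatokine gene (horizontal axis, bars ± SE derived from the edgeR test) in the 3 comparisons, with all 15 mice (filled circles) and without O2 and O5 (open squares). Inhbe in PDX versus Adult lies at -1.59 and -1.57, and Angptl4 in Old versus Adult changes side, from 0.43 to -0.59.

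Inhbe, the activin E subunit, had the largest difference of the 9 between PDX and Adult. Its level was 44.5, 21.9, 28.8, 76.4 and 24.2 CPM in A1 to A5, 26.2, 10.9, 32.6, 15.5 and 8.01 CPM in O1 to O5, and 6.04, 6.38, 13.9, 15.9 and 22.8 CPM in P1 to P5. Of the PDX mice, 4 lay below every Adult mouse and P5 lay within the Adult range, between A2 and A5. The mean was 39.2 ± 22.6 CPM in Adult, 18.6 ± 10.4 in Old and 13.0 ± 7.03 in PDX (SD, n = 5). The log2 fold change was -1.59 ± 0.47 (SE) for PDX versus Adult, 3.01-fold lower, with an unadjusted p of 0.00414 and an adjusted p of 0.0826 in edgeR, above the threshold. Without O2 and O5, which are in neither group but share the estimate of the spread, it was -1.57 ± 0.41 with an adjusted p of 0.0139, and with the 10 mice of the 2 groups alone -1.58 with an adjusted p of 0.0160, both called. These settings also called 24.6% and 29.6% of all genes for PDX versus Adult. For Old versus Adult it was -1.07 ± 0.46 (adjusted p = 0.149), and -0.65 ± 0.47 without O2 and O5 (adjusted p = 0.423). For PDX versus Old it was -0.52 ± 0.46 (adjusted p = 0.808), a difference within the spread of the 2 groups.

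The fetuins, secreted glycoproteins of hepatocytes, were even in the Adult mice and spread out in the Old mice. Ahsg measured 8654, 8712, 8015, 9084 and 8763 CPM in A1 to A5, 16267, 6124, 8515, 14791 and 8041 CPM in O1 to O5, and 14266, 12811, 12188, 12946 and 10120 CPM in P1 to P5. All 5 PDX mice lay above all 5 Adult mice, while the Old mice lay on both sides of the Adult range. The coefficient of variation was 4.51% in Adult, 41.7% in Old and 12.1% in PDX. Ahsg was 1.44-fold higher in PDX than in Adult (log2 fold change 0.53 ± 0.26, adjusted p = 0.261), not called, and called without O2 and O5 (0.55 ± 0.15, adjusted p = 0.0198). Ahsg was also the only member called for Old versus Adult without O2 and O5 (0.62 ± 0.17, adjusted p = 0.0473, from 3 Old mice, where 7.12% of all genes were called), against 0.31 ± 0.26 with all mice (adjusted p = 0.453).

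Fetub, its neighbour on chromosome 16, measured 504, 476, 422, 473 and 503 CPM in A1 to A5, 778, 376, 465, 750 and 638 CPM in O1 to O5, and 647, 592, 497, 529 and 624 CPM in P1 to P5. O1 and O4 were the highest mice for both fetuins and O2 the lowest. In PDX, 4 mice lay above the Adult range and P3 within it. The log2 fold change was 0.34 ± 0.19 for Old versus Adult (adjusted p = 0.256), 0.28 ± 0.19 for PDX versus Adult (adjusted p = 0.422) and -0.06 ± 0.19 for PDX versus Old (adjusted p = 0.940). Without O2 and O5 the first 2 were 0.49 ± 0.15 (adjusted p = 0.0643) and 0.30 ± 0.13 (adjusted p = 0.117).

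Rbp4, the plasma carrier of retinol, lay lower in the PDX mice than in the Adult mice. It measured 2661, 2533, 2559, 2642 and 2454 CPM in A1 to A5, 2856, 1084, 1975, 2246 and 1946 CPM in O1 to O5, and 2336, 1781, 2060, 2001 and 2070 CPM in P1 to P5. All 5 PDX mice and 4 of the 5 Old mice lay below every Adult mouse, and O1 lay above them all. The log2 fold change was -0.33 ± 0.21 for PDX versus Adult (1.25-fold lower, adjusted p = 0.397), and -0.31 ± 0.11 without O2 and O5 (adjusted p = 0.0549). For Old versus Adult it was -0.35 ± 0.21 (adjusted p = 0.295), and -0.11 ± 0.13 without O2 and O5 (adjusted p = 0.628). Ttr, whose protein binds RBP4 in plasma, was 5224 ± 462 CPM in Adult, 2537 ± 1292 in Old and 3438 ± 813 in PDX (log2 fold change -1.04 ± 0.36 for Old versus Adult, adjusted p = 0.0782, with no overlap of the groups), also not called.

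Selenop, the plasma selenium transporter, had the smallest spread of the 9 in the PDX mice. It measured 5022, 4333, 4637, 4770 and 4498 CPM in A1 to A5, 6518, 3034, 3938, 5320 and 2324 CPM in O1 to O5, and 5123, 4863, 4718, 5102 and 4802 CPM in P1 to P5. The PDX mice spanned 4718 to 5123 CPM and the Old mice 2324 to 6518 CPM around them. The log2 fold changes were -0.14 ± 0.24 for Old versus Adult, 0.22 ± 0.24 for PDX versus Old and 0.08 ± 0.24 for PDX versus Adult (adjusted p = 0.744, 0.838 and 0.888), and the first 2 changed sign without O2 and O5 (0.19 and -0.09). Of the 27 selenoprotein and selenium handling genes, all tested, 2 rose and 1 fell in Old versus Adult, with a median of -0.17, where 4.71% of all genes rose and 2.07% fell. Gpx3, a secreted glutathione peroxidase, rose from 6.13 ± 0.981 CPM in Adult to 48.0 ± 40.0 in Old (log2 fold change 2.97 ± 0.50, adjusted p = 0.00768) and Selenom, an endoplasmic reticulum selenoprotein, rose by 0.70 ± 0.20 on the log2 scale (adjusted p = 0.0480, and 0.126 without O2 and O5). Gpx1, the cytosolic glutathione peroxidase, fell from 1736 ± 124 to 945 ± 257 CPM (-0.88 ± 0.19, adjusted p = 0.0213).

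Lect2, a chemotactic factor made by hepatocytes, was between 73.2 and 162 CPM in every mouse but O5. It measured 115, 162, 131, 135 and 144 CPM in A1 to A5, 107, 73.2, 103, 117 and 6.35 CPM in O1 to O5, and 109, 108, 144, 106 and 74.0 CPM in P1 to P5. O5 held 176 counts of it, the next lowest mouse of the 15 was O2, and 4 of the 5 Old and 4 of the 5 PDX mice lay below the lowest Adult mouse. The log2 fold change for Old versus Adult was -0.76 ± 0.47 (adjusted p = 0.308) and -0.32 ± 0.17 without O2 and O5 (adjusted p = 0.258). For PDX versus Old it was 0.41 ± 0.47 and moved to -0.01 ± 0.17 without those mice (adjusted p = 0.844 and 0.996), and for PDX versus Adult it was -0.35 ± 0.46 (adjusted p = 0.730).

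Angptl4 and Angptl8, both inhibitors of lipoprotein lipase, stood at opposite ends in mouse O5. Angptl4, which rises in fasting, measured 145, 37.3, 107, 40.7 and 19.6 CPM in A1 to A5, 14.6, 20.9, 76.9, 46.3 and 311 CPM in O1 to O5, and 51.4, 79.6, 76.7, 38.6 and 74.1 CPM in P1 to P5. Angptl8, which rises on feeding and with insulin, measured 105, 57.4, 108, 99.2 and 115 CPM in A1 to A5, 173, 55.0, 44.8, 100 and 2.81 CPM in O1 to O5, and 32.6, 63.5, 65.4, 65.4 and 141 CPM in P1 to P5. O5 was the highest of the 15 mice for Angptl4 and the lowest for Angptl8, and O1 was the lowest for Angptl4 and the highest for Angptl8.

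Neither gene differed between groups beyond the spread. The log2 fold change of Angptl4 was 0.43 ± 0.71 for Old versus Adult, -0.55 ± 0.71 for PDX versus Old and -0.13 ± 0.71 for PDX versus Adult (adjusted p = 0.733, 0.856 and 0.944), and without O2 and O5 the first 2 turned to -0.59 ± 0.59 and 0.49 ± 0.59. That of Angptl8 was -0.36 ± 0.64, -0.03 ± 0.64 and -0.39 ± 0.64 (adjusted p = 0.747, 0.992 and 0.785), and without O2 and O5 the first was 0.14 ± 0.42. Lpl, the lipase that both inhibit, was called higher in Old, 19.9 ± 2.50 CPM in Adult against 67.3 ± 73.9 in Old and 52.3 ± 18.2 in PDX (1.76 ± 0.50, adjusted p = 0.0471), and not without O2 and O5 (0.56, adjusted p = 0.178, and 0.81 without O2 alone). O2, with the highest macrophage marker sum, had 198 CPM of Lpl and the other Old mice 21.0 to 51.5 CPM, and the part of other cell types in this difference was not tested.

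Fgf21 was the scarcest member, and 1 Adult mouse set the sign of its differences from Adult. It measured 14.5, 0.493, 2.55, 0.695 and 1.03 CPM in A1 to A5, 1.10, 2.96, 1.77, 1.6 and 0.469 CPM in O1 to O5, and 0.907, 2.85, 1.89, 2.36 and 2.55 CPM in P1 to P5. Apart from A1, all mice lay between 0.469 and 2.96 CPM and the 3 groups overlapped. The log2 fold change was -1.28 ± 0.78 for Old versus Adult (adjusted p = 0.302), and 0.42 without A1. For PDX versus Adult it was -0.87 ± 0.77 (adjusted p = 0.563), and 0.84 without A1, and for PDX versus Old 0.41 ± 0.78 (adjusted p = 0.896). In the receptor list, Klb (beta-klotho) measured 28.4 to 43.2 CPM in Adult mice, 12.2 to 41.4 CPM in Old mice and 14.5 to 26.7 CPM in PDX mice. The log2 fold change was -0.61 for Old versus Adult (adjusted p = 0.181) and -0.68 for PDX versus Adult (adjusted p = 0.197), both not called. All PDX mice lay below every Adult mouse, as for 9.34% of all genes. Of the 29 receptor, partner and carrier genes, 24 were tested, and 1 (Lpl) rose and 0 fell in Old versus Adult (4.71% and 2.07% of all genes). In PDX versus Adult 0 were called by edgeR (2.66% of all genes). There 6 had an unadjusted p under 0.05, and 2 were called by DESeq2 and 9 by limma-voom, beside 20.6%, 7.68% and 33.3% of all genes.

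**Figure D3:**
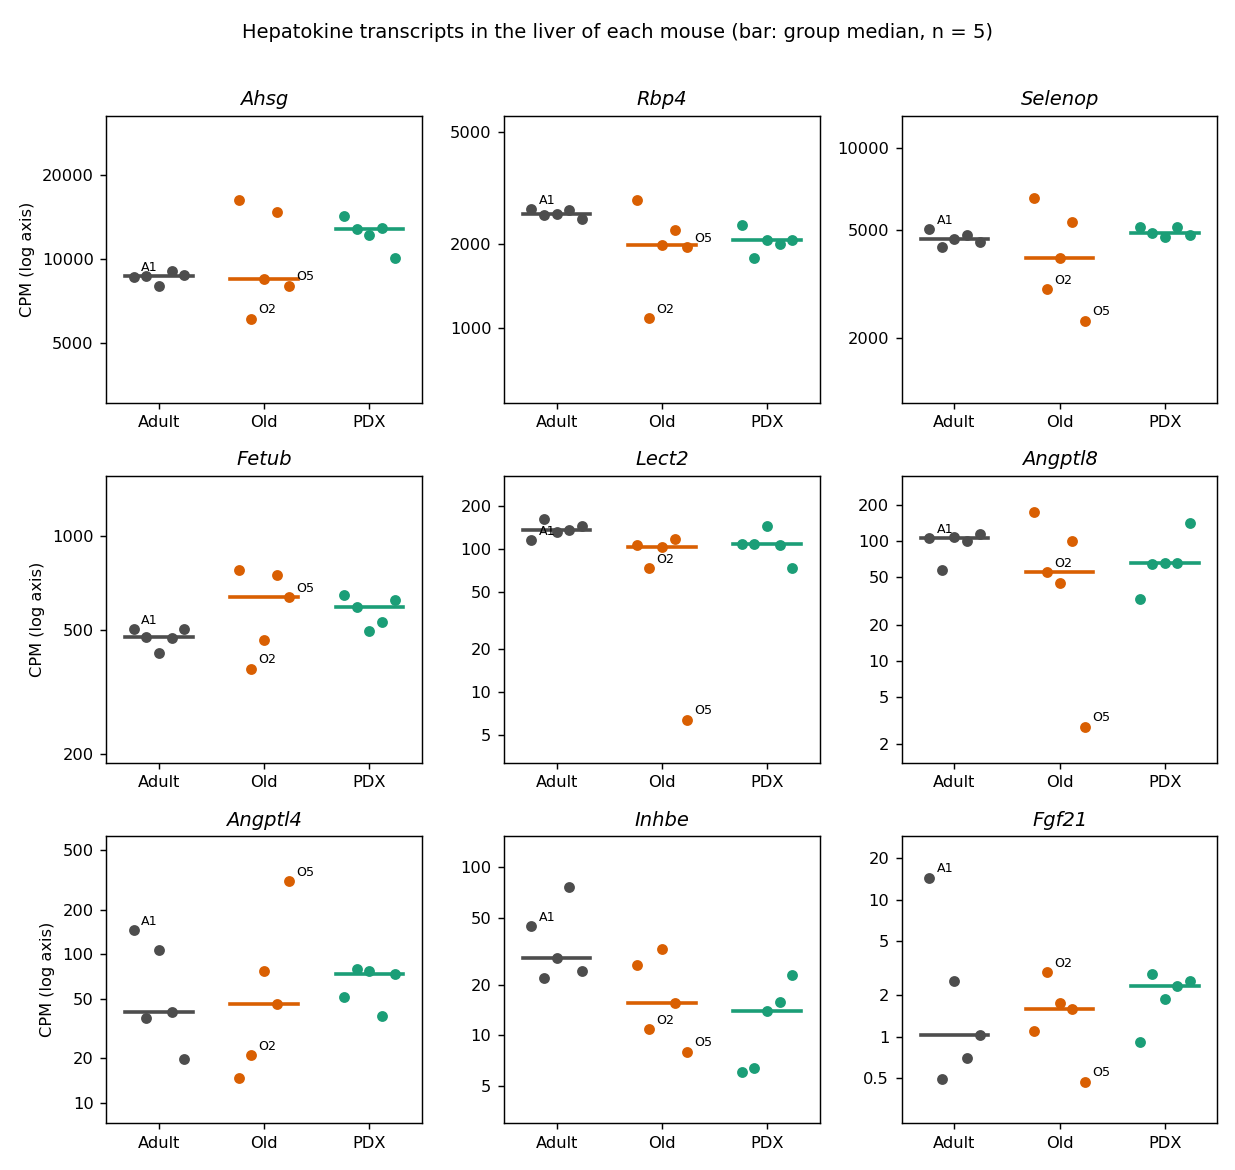
Level of the 9 transcripts in each mouse (CPM, log axis, a separate scale per gene), with bars at the group medians (n = 5) and labels on A1, O2 and O5. The Adult and PDX mice do not overlap for Ahsg and Rbp4, the Old mice of Ahsg, Rbp4, Selenop and Fetub span a wider range than either, and O5 is far below the rest for Lect2 (6.35 CPM) and Angptl8 (2.81 CPM).

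The spread between mice was wider in the Old group for most members, as for most genes. The SD of log2 CPM was larger in Old than in Adult for 8 of the 9 members, all but Fgf21, and for 90.4% of all genes tested. Its median over the members was 0.18 in Adult, 0.84 in Old and 0.34 in PDX, beside 0.20, 0.53 and 0.23 over all genes. Without O2 and O5 the median over the members in Old was 0.42, beside 0.28 over all genes, and the SD stayed above that of Adult in 6 of 9 members (65.9% of all genes). O1, O2 and O5 held most of the extremes. O1 was the highest of the 15 mice for 5 members (Angptl8, Fetub, Ahsg, Rbp4 and Selenop), O2 the lowest for 3 (Fetub, Ahsg and Rbp4) and O5 the lowest for 4 (Fgf21, Angptl8, Lect2 and Selenop) and the highest for Angptl4.

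**Figure D4:**
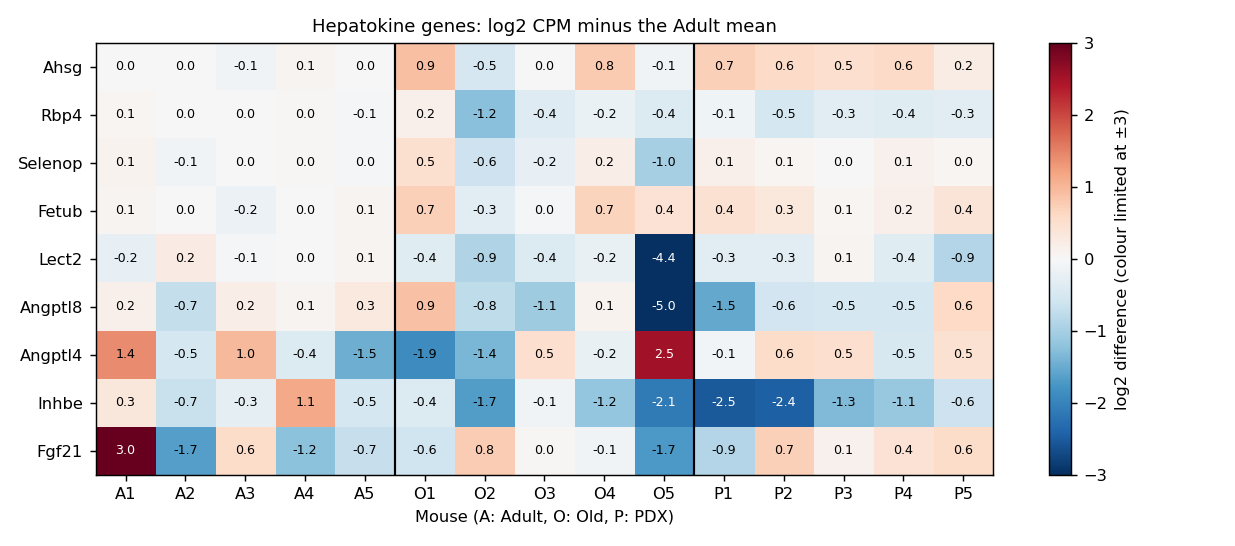
Log2 CPM of each hepatokine gene in each mouse minus the mean of the Adult mice, with colours limited at ±3 and vertical lines between the groups. O5 reaches -4.4 for Lect2 and -5.0 for Angptl8. Inhbe is below the Adult mean in all 10 mice of the Old and PDX groups, and also in A2, A3 and A5, with A4 at 1.13 and O3 at -0.10.

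The programmes known to control these genes were described with gene lists. PPARA, the fatty acid sensor of the fasted liver, drives Fgf21 and Angptl4. Its list holds 20 genes, Ppara itself among them beside its targets. Of these 20, 0 rose and 3 fell in Old versus Adult, where 4.71% of all genes rose and 2.07% fell. The median was -0.60 beside 0.07 for all genes, and 18 of the 20 lay below 0 (43.2% of all genes). Acaa1b, a peroxisomal thiolase, fell from 1265 ± 169 CPM in Adult to 241 ± 192 in Old (-2.39 ± 0.66, adjusted p = 0.0433). Ehhadh, the peroxisomal bifunctional enzyme, fell from 772 ± 87.8 to 310 ± 119 CPM (-1.32 ± 0.26, adjusted p = 0.0151), and Slc25a20, the mitochondrial carnitine carrier, from 114 ± 5.74 to 78.3 ± 14.7 CPM (-0.54 ± 0.15, adjusted p = 0.0463, and 0.0685 without O2 and O5). In all 3 the Old mice lay below all Adult mice. In PDX versus Adult 3 of the 20 fell (0.898% of all genes), with a median of -0.63. Without O2 and O5 12 fell and 1 rose, where 10.2% of all genes fell and 14.4% rose.

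Of the 19 tested genes of ATF4 and the integrated stress response, which induces Fgf21 and Inhbe, 3 rose and 0 fell in Old versus Adult (4.71% and 2.07% of all genes), with a median of 0.58. The 3 were Psat1, Phgdh and Mthfd2, enzymes of serine synthesis and mitochondrial folate metabolism, and Mthfd2, the one of them above the level set for naming, rose from 1.18 ± 0.309 to 4.70 ± 5.05 CPM (1.99 ± 0.49, adjusted p = 0.0297). Mthfd2 was highest in O2 (13.7 CPM), the mouse with the highest immune marker sums, and its log2 fold change was 1.06 without O2 and 0.95 without O2 and O5. Of the 19 genes, O5 was the highest of the 15 mice in 10 (52.6%, beside 25.9% of all genes) and O2 in 5 (26.3%, beside 20.1%). The median difference of the list from the Adult mean was 1.28 in O5 and 0.68 in O2 on the log2 scale. Fgf21 was 0.469 CPM in O5, the lowest of the 15 mice, and Inhbe 8.01 CPM, the lowest of the Old mice. The link of these levels to the list was not tested. Without O2 and O5 the median log2 fold change of the list was 0.18 for Old versus Adult. In PDX versus Adult 0 were called by edgeR and DESeq2 and 5 by limma-voom (33.3% of all genes), with 5 at an unadjusted p under 0.05 (20.6% of all genes). The 16 genes of feeding, ChREBP and SREBP1, the programme that raises Angptl8, had 0 calls by edgeR in Old versus Adult (6.78% of all genes) and in PDX versus Adult (2.66%). Their median was -0.75 in Old versus Adult, and -0.31 without O2 and O5. In Old versus Adult 4 of them had an unadjusted p under 0.05 (27.7% of all genes), and 4 were called lower by DESeq2 (4% of all genes) and 5 by limma-voom (7.44%). The smallest unadjusted p among them belonged to Me1, the malic enzyme (146 ± 14.5 CPM in Adult, 69.1 ± 28.2 in Old, adjusted p = 0.0517), Mlxipl, which encodes ChREBP (adjusted p = 0.0660), and Khk, ketohexokinase (adjusted p = 0.0742).

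Mouse O5 was the lowest of the 15 in 15 of these 16 feeding genes (93.8%, beside 28.4% of all genes) and the highest in 10 of the 14 genes of the glucocorticoid and fasting list (71.4%, beside 25.9%). Its median difference from the Adult mean was -2.95 on the log2 scale in the feeding list and 2.21 in the glucocorticoid list, and it lay between -0.97 and 0.27 and between -0.57 and 0.67 in the other 14 mice. Igfbp1, an insulin-repressed secreted protein of the other hormones list, measured 5504 CPM in O5 and 20.3 to 728 CPM in the others. The list of Ppara and its targets, also of the fasted liver, was not raised in O5. There O5 was the highest in 2 of the 20 genes (10%, beside 25.9%) and the lowest in 4 (20%, beside 28.4%). Its median difference was -0.72, against -1.25 to -0.19 in the other Old and PDX mice. Fgf21, which fasting induces, was at its lowest in O5 (0.469 CPM). O5 also had the highest frailty index of the 15 mice in the sample labels, 0.56. Whether its feeding state, time of death or health took part was not tested. The glucocorticoid list had 1 call in Old versus Adult (6.78% of all genes), Irs2, the insulin receptor substrate (25.9 ± 8.02 CPM in Adult, 73.4 ± 56.4 in Old, 1.50 ± 0.40, adjusted p = 0.0391). It had 0 calls without O2 and O5, where 7.12% of all genes were called (Irs2 1.11, adjusted p = 0.0519, and 0.98 without O5 alone).

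**Figure D5:**
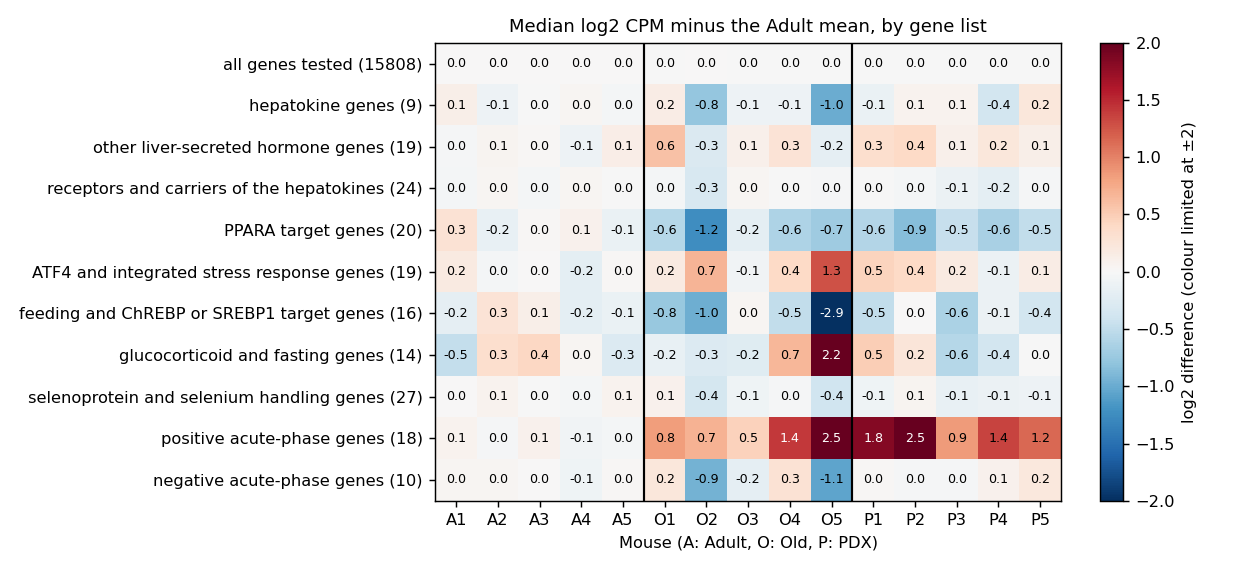
Median over each gene list (number of tested genes in brackets) of log2 CPM minus the Adult mean, for each mouse, with colours limited at ±2 and vertical lines between the groups. O5 stands at -2.9 in the feeding list and 2.2 in the glucocorticoid and fasting list, and the positive acute-phase list is above 0 in all 10 Old and PDX mice.

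Fetuin-A, RBP4 and transthyretin are classed as negative acute-phase proteins, and of the lists of regulators, partners and other hormones described here the positive acute-phase list held the most called genes. Of 18 positive acute-phase genes, 7 rose and 0 fell in Old versus Adult (median 1.54), where 4.71% of all genes rose and 2.07% fell. In PDX versus Adult 10 rose and 0 fell (median 1.65), where 1.76% of all genes rose and 0.898% fell. Without O2 and O5 17 rose in PDX versus Adult, beside 14.4% of all genes. Lcn2, the iron-siderophore binding lipocalin, rose from 15.1 ± 7.08 CPM in Adult to 404 ± 339 in Old (4.74 ± 0.71, adjusted p = 0.00416), Orm2, an orosomucoid, from 31.1 ± 9.19 to 253 ± 292 (3.02 ± 0.80, adjusted p = 0.0386, and 0.0801 without O2 and O5, with a log2 fold change of 2.06 without O5 alone) and Saa3, a serum amyloid A, from 3.56 ± 1.02 to 27.6 ± 21.2 (2.96 ± 0.46, adjusted p = 0.00516). Lcn2 and Saa3 are also made by neutrophils and macrophages, whose markers summed to 8.03 to 132 CPM and 477 to 3906 CPM in Old mice and to 2.50 to 5.24 CPM and 515 to 775 CPM in Adult mice. In PDX mice they summed to 12.5 to 51.0 CPM and 915 to 1924 CPM, above every Adult mouse, and the part of those cells in either comparison was not tested. Of 10 negative acute-phase genes, 0 were called by edgeR in the 3 comparisons of all 15 mice (median -0.05 in Old versus Adult). There 4 of the 10 had an unadjusted p under 0.05 in Old versus Adult (27.7% of all genes), and DESeq2 and limma-voom each called 3 (14.1% and 14.7% of all genes). Without O2 and O5, edgeR called 3 of the 10 higher and 0 lower in Old versus Adult (median 0.20), where 7.12% of all genes were called in either direction. In PDX versus Adult that setting called 2 higher and 1 lower, where 14.4% of all genes rose and 10.2% fell. Besides Ttr, the smallest unadjusted p values with all 15 mice were those of Trf, transferrin (20383 ± 1681 CPM in Adult, 30897 ± 5796 in Old, adjusted p = 0.0929), and Apoa1, apolipoprotein A-I (5247 ± 822 and 8087 ± 2833 CPM, adjusted p = 0.107), both higher in Old. Both were called by edgeR without O2 and O5 (log2 fold change 0.71 and 0.87, adjusted p = 0.0195 and 0.0157).

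Among 20 other genes of liver hormones, 19 were tested, and 5 rose and 0 fell in Old versus Adult, where 4.71% of all genes rose and 2.07% fell. The 5 were Serpina12, Fgl1, Enho, Itih3 and Manf. Serpina12, which encodes the insulin-sensitizing adipokine vaspin, measured 0.512 to 2.33 CPM in Adult mice and 11.7 to 50.2 CPM in O1 to O4, with 1.05 CPM in O5 and 15.4 to 46.5 CPM in PDX mice (4.03 ± 0.74, adjusted p = 0.0112). Fgl1, fibrinogen-like 1, rose from 479 ± 25.8 to 1553 ± 642 CPM (1.70 ± 0.27, adjusted p = 0.00652) and Enho, which encodes adropin, from 12.7 ± 1.75 to 39.6 ± 31.0 CPM (1.64 ± 0.43, adjusted p = 0.0378). Serpina12, Fgl1 and Enho were also called higher in PDX versus Adult (1.76% of all genes were), a comparison that shares the Adult mice. In PDX versus Old 0 genes of these lists were called by edgeR, DESeq2 or limma-voom.

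Genes whose levels moved most like each member within the groups were ranked by Pearson's r of log2 CPM after subtraction of the group means, over 15 mice, among 12022 or 12023 other genes whose mean log2 CPM reached 1, as a description. Rbp4 was most like Acadvl (r = 0.98), Selenop most like Apom (0.97), Ahsg most like Serpina1a and Fetub most like Zdhhc6 (0.96 each), and all 4 kept r of 0.89 to 0.93 without O2 and O5. Lect2 was most like Gstt1 (0.98), which fell to 0.50 without those mice. Angptl8 was most like Angptl6, another angiopoietin-like gene (0.95, and 0.72 without them), Angptl4 most like Lpin2 (0.92 and 0.86) and Inhbe most like Pex26 (0.88 and 0.88), with Cebpa, a hepatocyte transcription factor, in its first 3 (0.88 and 0.90). Fgf21 was most like Atxn1 (0.79 and 0.77). The points share libraries and mice, and the mice that stand apart carry much of the largest values.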

How the data were processed

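Liver mRNA of 15 mice was sequenced, 5 in each group, with 1 library per mouse. Per the labels and the methods of the study, poly(A)-selected strand-specific libraries were read as paired ends, aligned to mm10 with STAR (2.6.0c) and counted with featureCounts (Subread 1.6.2) by strand on Ensembl build 100, from uniquely aligned proper pairs, mitochondrial genes left out. The authors deposited these counts without normalization, and beside them values on a log2 scale from the variance stabilizing transformation of DESeq2 (1.23.10). All columns carry the name of a mouse, and the mice of a group are separate animals.

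Symbols, coordinates and exon lengths came from GENCODE M21 (55104 of 55450 IDs matched) and upstream sequences from RefSeq on GRCm38.p6. Low-count genes were removed in R 4.3.3 by filterByExpr (minimum count 10, minimum total 15), and the rest were scaled with TMM factors and fitted with edgeR 4.0.16 (quasi-likelihood, 1 coefficient per group, all 15 mice, two-sided, Benjamini-Hochberg over 15808 genes). Log2 CPM used a prior count of 2. The SE of a log2 fold change was derived from the edgeR test, as its absolute value over the square root of the F statistic. Levels between genes were divided by exon length, and intervals for counting error were not needed, since each value is given with its spread over mice. Tables were made with pandas 2.3.3. Alternatives were DESeq2 1.42.0, limma-voom with sample quality weights (limma 3.58.1), other scalings and filters, fits of 2 groups, a replicate block and fits without single mice or without O2 and O5. The limma-voom weights were 0.139 for O2, 0.0716 for O5 and 0.448 to 2.70 for the other mice. The edgeR fit was tested for Old versus Adult on simulated counts, drawn without mice that stand apart as O2 and O5 do. The members, the gene lists, the tests and the alternatives were chosen with earlier results of these data known, and all members are named. From each list the text names the 3 largest changes among called genes in Old versus Adult whose mean log2 CPM reached 1, or the 3 smallest unadjusted p values. Itih3, Manf, Psat1, Phgdh, Klb and Igfbp1 were named after their values were seen. The replicate numbers of the groups belong to different animals, and same-numbered mice did not deviate together (mean r of -0.17 for Old and Adult, 0.09 for PDX and Old and 0.03 for PDX and Adult).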

Additional observations from a re-analysis of the deposited data

Results flagged for a closer look

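In groups of 5 mice, the lowest or the highest mouse was tested for its distance from the others on log2 CPM (Dixon's criterion), for 9 genes in 3 groups, 27 tests of which chance flags about 1 in 20. It marked 2 values. Lect2 in O5 was 2.68 log2 CPM, against 6.20 to 6.87 in the other Old mice. Angptl8 in A2 was 5.84 log2 CPM (57.4 CPM), against 6.63 to 6.84 in the other Adult mice. Angptl8 in O5 (2.81 CPM), Angptl4 in O5 (311 CPM) and Fgf21 in A1 (14.5 CPM) did not pass this criterion.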

How the results depend on the processing

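The 27 log2 fold changes of the members were recomputed in 26 alternatives each, 702 values, of which 646 kept direction and side of the threshold, 16 passed the threshold that the fit of all mice missed, and 40 changed sign. The 27 group levels moved by less than 1 SD without TMM factors, and the 27 differences of mean log2 values by less than 1 SD with the variance stabilized values of the authors. The fit of all mice called 0 members in each comparison, so every sign change could only belong to a difference that was not called. The cause of the sign changes was not tested. For PDX versus Adult, DESeq2 called 1 member (7.68% of all genes), limma-voom 4 (33.3%) and the fit of the 2 groups alone 4 (29.6%). Limma-voom called 2 for Old versus Adult (14.7%). Without O2 and O5, 1 was called for Old versus Adult (7.12%) and 2 for PDX versus Adult (24.6%). Leaving out single mice gave 0 to 1 for PDX versus Adult. It was 1 (Inhbe) without O2 (adjusted p = 0.0429, among 1766 genes called) and without O5 (adjusted p = 0.0351, among 1744).

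Over all genes, calls for Old versus Adult were 1072, with 2641 in DESeq2, 2324 in limma-voom, 105 in the fit of the 2 groups, 665 without a filter, and 156 (without A5) to 2178 (without O3) when single mice were left out. For PDX versus Adult they were 420, with 1400, 5271 and 4529 in the first 3 of these, 4004 without O2 and O5, and 166 (without A5) to 1766 (without O2) without single mice. For PDX versus Old they were 0, with 1 in DESeq2. With the replicate block, 237 genes were called for Old versus Adult and 316 for PDX versus Adult, with 0 members in either, and Angptl4 in Old versus Adult (-0.092), Fgf21 in PDX versus Adult (0.020) and Angptl8 in PDX versus Old (0.13) changed sign. The numbers do not pair the mice.

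Without O2 and O5 the sign changed in Old versus Adult for Angptl4 (-0.59), Angptl8 (0.14) and Selenop (0.19), and in PDX versus Old for Angptl4 (0.49), Ahsg (-0.075), Selenop (-0.089), Rbp4 (-0.20) and Lect2 (-0.0050). With limma-voom it changed in Old versus Adult for Angptl4 (-0.35), Angptl8 (0.0072) and Selenop (0.18), in PDX versus Old for Angptl4 (0.60), Ahsg (-0.12), Rbp4 (-0.16) and Selenop (-0.072), and in PDX versus Adult for Angptl4 (0.24) and Fgf21 (0.36). For Rbp4 in PDX versus Old it also changed with library totals (-0.0062) and the 2 groups alone (-0.0023). Leaving out single mice gave, for Old versus Adult, -0.82 to 0.87 for Angptl4, -1.64 to 0.42 for Fgf21 and -0.33 to 0.015 for Selenop, for PDX versus Old, -0.86 to 0.69 for Angptl4, -0.41 to 0.53 for Angptl8, -0.19 to 0.037 for Fetub and -0.14 to 0.16 for Rbp4, and for PDX versus Adult, -0.37 to 0.33 for Angptl4 and -1.16 to 0.84 for Fgf21.

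Of the 15 named list genes called for Old versus Adult, Fgl1, Gpx3, Lcn2 and Saa3 were called in all 26 alternatives, Serpina12 and Ehhadh in 25, and the other 9 in 8 to 20, with 0 sign changes. The counts of called list genes moved with single mice too, for example from 1 (without A1) to 6 (without O3) for the list of Ppara and its targets. With 5 mice per group the SE of the members was 0.19 to 0.78 on the log2 scale, and a difference of several SE could still miss the threshold, as Inhbe in PDX versus Adult did (-1.59 ± 0.47). Depth adds to the error of Fgf21 (13 counts in 1 mouse).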
